A study of Rattus norvegicus with 2 samples.

Results

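The genes described here had at least 2-fold more signal with OBP-801 than with saline in both the ventral and the lateral prostate of TRAP rats, while their saline signals in the lobes lay within 2-fold of each other. A probe was taken when its net signal was at least 30 units in all 4 channels, its median-centred log2 ratio (OBP-801 to saline) was at least 1 on both arrays, and its centred log2 difference of lateral over ventral saline signal lay between -1 and 1. The net signal is the spot intensity less the mean of the blank spots. Of 20174 gene probes on each array, 9013 reached the signal minimum in all channels and were compared, and 67 of these met the rule. Because the ratios of both arrays and the saline lobe difference chose the 67 genes, those values are a description and carry no test.

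TRAP rats are a transgenic line that develops prostate tumours from SV40 T antigen driven by the probasin promoter, which is active in prostate epithelium. Male rats received saline or OBP-801 (1 mg/kg) intravenously 2 times a week from 6 weeks of age for 8 weeks, and all were fed a control diet. Total RNA of ventral prostate cancer tissue was hybridised to 1 two-colour array and that of lateral prostate cancer tissue to another, and each array carried the saline sample in Cy5 beside the OBP-801 sample in Cy3. The sources used here do not say how many rats each RNA came from, no replicate array and no array with exchanged dyes was analysed, and dye and treatment cannot be told apart for a single probe. In tissue RNA of this kind a higher level per cell and more cells of a type that holds the transcript cannot be told apart either.

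OBP-801 is an inhibitor of histone deacetylases. These enzymes remove acetyl groups from the lysines of histones and of other proteins, and acetylated histones are found at active promoters and enhancers. Inhibition of the enzymes is known to raise the transcripts of some genes and to lower those of others, partly through secondary effects. The ventral and lateral lobes of the rat prostate are both secretory glands under androgen control, with partly different secretory products.

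Each probe carries an Ensembl rat gene identifier. Neither the files nor the RefSeq gene table used here (GRCr8) pairs these identifiers with symbols, and 0 of the 20174 were matched. No role, protein, promoter or chromosome is therefore given for any of the 67 genes, the lists of pathway and cell type genes were not evaluated, and the labelled tissue was not checked against its markers. The 2 of them with the largest common increase are named by identifier, and the others are called by their rank on the smaller of the ratios of the lobes.

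The highest in this order was ENSRNOG00000033615. In the ventral prostate its net signal was 2091 units with saline and 13615 units with OBP-801. In the lateral prostate the same channels read 2123 and 12127 units. The saline net signals of the lobes were almost equal, and both OBP-801 net signals were far above them. After centring, these signals correspond to increases of 3.13-fold in the ventral and 2.93-fold in the lateral lobe. The centring matters for every fold given here, since the median compared probe had 2.08 times as much Cy3 as Cy5 signal on the ventral and 1.95 times as much on the lateral array.

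ENSRNOG00000003094 was the next. It had 1976 units in ventral saline RNA and 11898 units in ventral OBP-801 RNA, while it had 1503 and 9136 units in the lateral prostate. The ventral fold was 2.89 and the lateral fold 3.11, so that the lobe with the larger fold was not the same for these 2 genes. Both lay at the 91.1th percentile or above of the compared probes in saline RNA of either lobe. No other of the 67 genes reached a log2 ratio of 1.5 in both lobes.

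The gene ranked 3 was less abundant, with 257 and 1562 units in ventral saline and OBP-801 RNA and 195 and 1032 units in the lateral prostate. Its folds were 2.92 (ventral) and 2.71 (lateral). In ventral RNA it moved from the 56.6th percentile of the compared probes with saline to the 81.5th with OBP-801, and in lateral RNA from the 49.95th to the 75.5th. The gene ranked 4 had 228 and 1220 units in the ventral and 109 and 553 units in the lateral prostate. Its saline signal was close to the allowed limit of the lobe difference, with a centred log2 difference of lateral over ventral of -0.98, yet its folds of 2.58 and 2.59 were nearly the same. The gene ranked 5 was another abundant one, with 1754 and 11273 units in the ventral and 1625 and 8104 units in the lateral prostate. Its folds were 3.09 and 2.56.

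The genes ranked 6 to 9 were all dim in saline RNA. The gene ranked 6 had 55.8 units in ventral saline, 295 in ventral OBP-801, 37.2 in lateral saline and 244 in lateral OBP-801 RNA. Its lateral fold of 3.37 was the largest lateral value among the 67 genes, beside a ventral fold of 2.54. The gene ranked 9 was like it, with 32.9 and 169 units in the ventral and 36.3 and 231 units in the lateral prostate, and folds of 2.47 and 3.26. Their saline signals stood close to the minimum of 30 units.

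**Figure D1:**
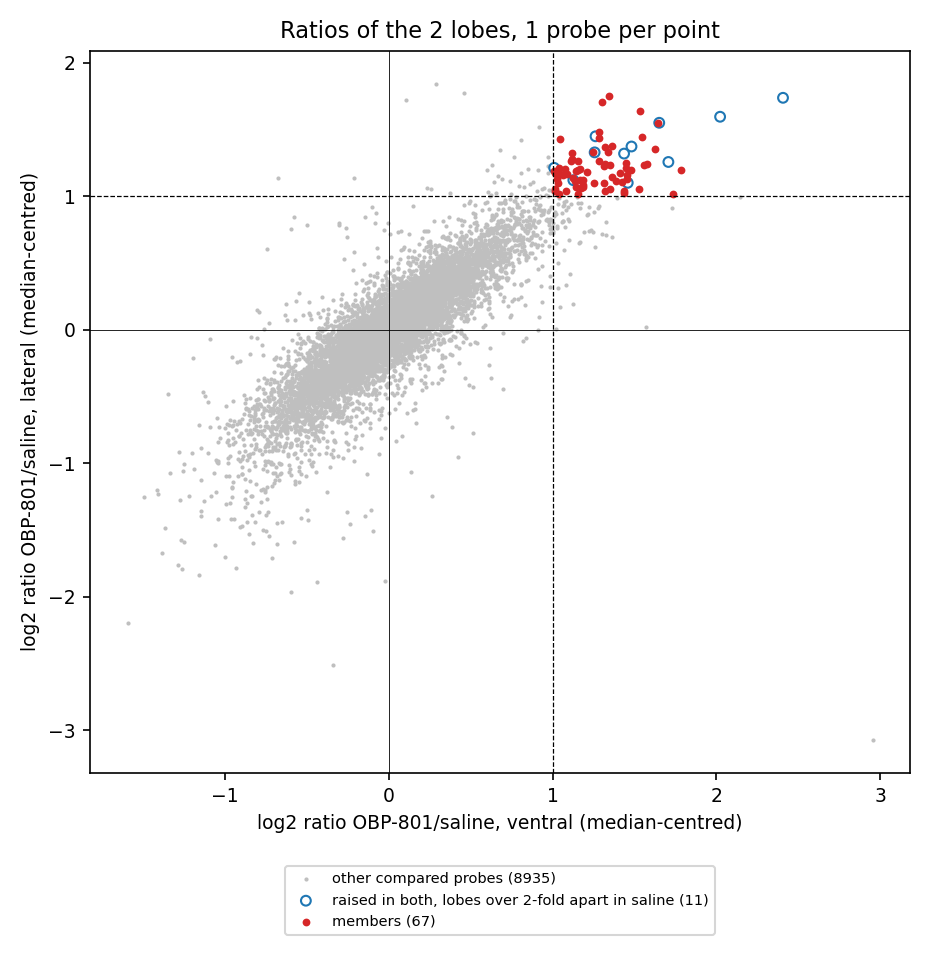
Each point is 1 of the 9013 compared probes, with its median-centred log2 ratio of OBP-801 over saline in the ventral prostate on the horizontal axis and in the lateral prostate on the vertical axis. Dashed lines mark a log2 ratio of 1. The 67 genes (red) and the 11 probes excluded for their saline lobe difference (open blue) fill the upper right corner, which continues from the cloud of the other probes without a gap.

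Among the 67 genes the fold ran from 2.01 to 3.45 in the ventral prostate, with a median of 2.43, and from 2.02 to 3.37 in the lateral prostate, with a median of 2.27. For 20 genes the smaller log2 ratio was at least 1.2, and for 26 it was below 1.1. None of the 67 was at least 3-fold higher in both lobes. As background, 138 of the 9013 compared probes (1.53%) reached 2-fold in the ventral lobe, 119 (1.32%) did so in the lateral lobe, and 78 (0.865%) in both. The 67 genes are 0.743% of the compared probes.

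There was no break in the data at the threshold. Just inside it, the genes ranked 66 and 67 had ventral log2 ratios of 1.01 and lateral ratios of 1.04 and 1.19. Just outside it lay a probe with log2 ratios of 0.996 (ventral) and 1.04 (lateral), and another with 1.15 and 0.991. Within the lobe limit, 28 compared probes had a smaller log2 ratio between 0.9 and 1, next to the 26 genes between 1 and 1.1.

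**Figure D2:**
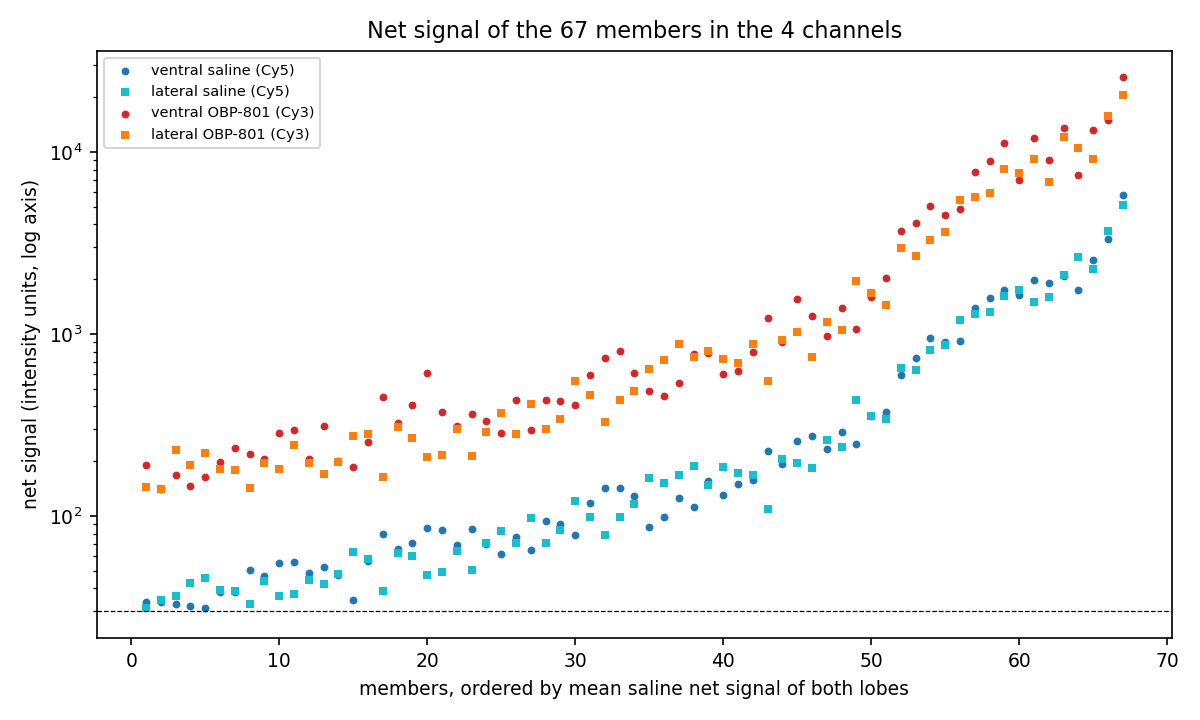
Net signal of the 67 genes in the 4 channels on a log axis, 1 column of 4 points per gene, ordered by the mean saline net signal of the lobes. The dashed line marks the minimum of 30 units. The OBP-801 points, which include the higher overall Cy3 signal, lie above the saline points in every column, from 140 units at the dim end to 25720 units at the bright end.

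The 67 genes covered a wide range of abundance. In ventral saline RNA their net signals had a lowest value of 31.2, a median of 118 and a highest value of 5827 units, and in ventral OBP-801 RNA of 141, 607 and 25720 units. In lateral saline RNA the corresponding values were 31.4, 117 and 5149 units, and in lateral OBP-801 RNA 140, 549 and 20650 units. With saline the median compared probe had 205 ventral and 195 lateral units, above the median of the 67 genes in the same channel. In OBP-801 RNA the order was the other way round, with 443 and 392 units for the median compared probe. The median percentile of the 67 genes among the compared probes was 33.4 in ventral saline and 59.7 in ventral OBP-801 RNA, and 35.2 and 60.4 in the lateral prostate. Together they held 0.566% of the net signal of all compared probes in ventral saline and 1.38% in ventral OBP-801 RNA, and 0.555% and 1.22% in the lateral prostate.

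By saline abundance, averaged over the lobes, 30 genes lay under 100 units, 25 between 100 and 1000, and 12 above 1000. These limits were chosen after the values were seen. The median folds of the 3 classes lay close together. The 2-fold rule sets the lower end of the folds in each class, so this closeness is in part set by the choice of genes. The median ventral fold was 2.32, 2.43 and 2.52 from the dimmest to the brightest class, and the median lateral fold was 2.28, 2.27 and 2.25. When the compared probes were split by saline signal into 4 groups of 2253 or 2254, the share among the 67 genes was 1.29% in the dimmest group, then 0.666% and 0.311%, and 0.71% in the brightest. The log2 ratios of all probes were also most spread in the dimmest group, where their SD was 0.43 for ventral and 0.44 for lateral prostate. In the group with the 0.311% share these SDs were 0.37 and 0.38. The part of that spread in the count of genes was not tested.

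**Figure D3:**
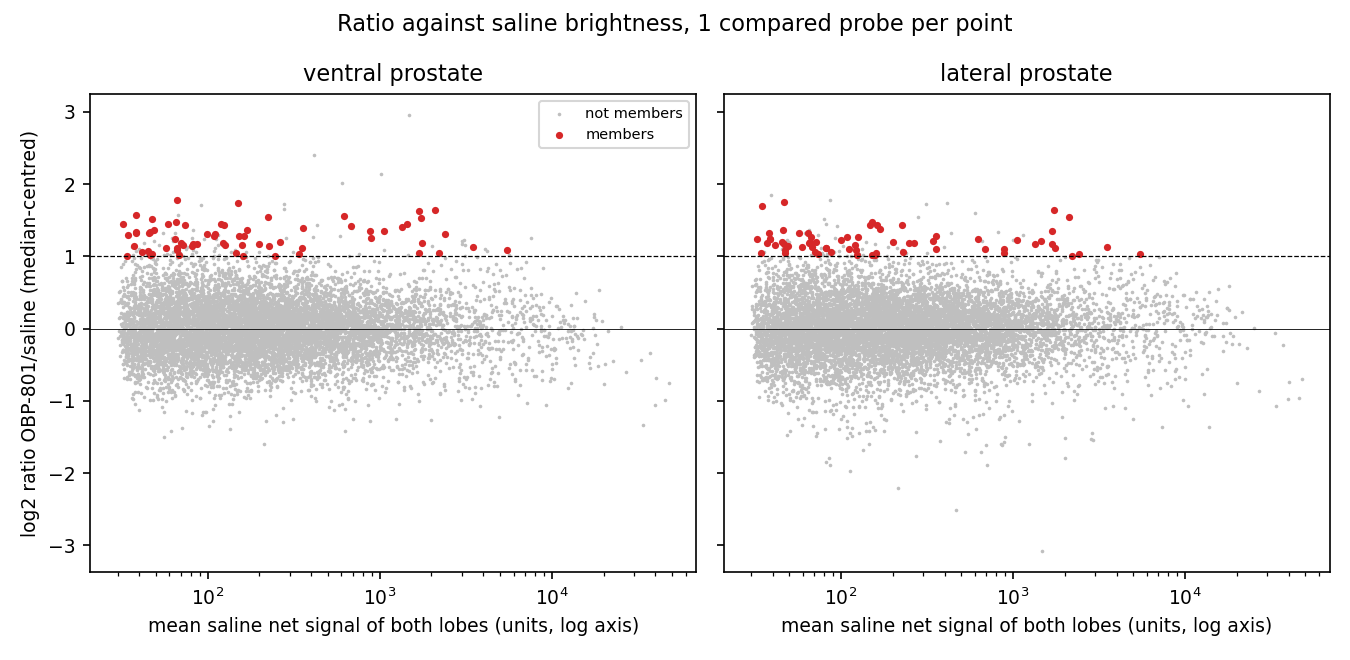
Median-centred log2 ratio of OBP-801 over saline (vertical axis) against the mean saline net signal of the lobes (log axis) for the compared probes, with the ventral prostate on the left and the lateral prostate on the right. The 67 genes (red) stand above the dashed line at 1 from 32.4 to 5488 units, while the medians of all compared probes, in 4 groups by saline signal, lie between -0.04 and 0.02.

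The brightest of the 67, ranked 54, had 5827 units in ventral saline and 25720 units in ventral OBP-801 RNA, and 5149 and 20650 units in the lateral prostate, for folds of 2.12 and 2.05. The next brightest, ranked 31, had 3320 and 15095 units in the ventral and 3672 and 15750 units in the lateral prostate, and its folds were 2.18 and 2.20. These genes had folds near the threshold, while the larger folds among the abundant genes belonged to those ranked 1, 2 and 5. At the other end, the dimmest gene, ranked 14, had 33.5 and 190 units in the ventral and 31.4 and 145 units in the lateral prostate, for folds of 2.73 and 2.37. None of the 67 reached the detector ceiling, and 0 of them carried a scanner flag.

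The only errors that could be measured were technical. Over 24 replicate spots each, the 2 positive controls had log2 ratios with SDs of 0.08 and 0.12 (ventral array) and 0.06 and 0.08 (lateral array). Their means, from -0.16 to 0.32, show how far a control could stand from 0 on this scale. These controls were bright, with median net signals from 6444 to 28278 units over the 4 channels. Their SDs therefore do not measure the error of dim genes. Blank spots varied with an SD of 0.81 units (Cy5) and 2.39 units (Cy3) for the ventral and 1.17 and 2.85 units for the lateral hybridisation. Each signal was then shifted by 2 of these trimmed SDs in the direction that lowers the ratio. After the shift 51 of the 67 genes stayed at 2-fold or above in both lobes. All 67 stayed at 1.5-fold or above, with a lowest log2 ratio of 0.89. These bounds cover the trimmed blank spread only, not the variation between rats or labellings. The minimum of 30 units and the 2-fold rule keep shifts of this size from taking any gene below 1.5-fold. That all 67 stayed there was therefore fixed in advance. Of the 5808 blank spots, the 809 spots described as having no probe and the 96 negative control spots, 0 reached 30 units in all 4 channels.

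The sizes of the increase in the lobes were close to each other. The ventral ratio was the larger for 39 genes and the lateral ratio for 28. The log2 difference of the ventral less the lateral ratio had a median of 0.05 and ran from -0.41 to 0.72, and for 65 of the 67 genes it was under 1.5-fold. Its SD was 0.22 both over the 67 genes and over all compared probes. By this measure the lobes were no closer for these genes than for compared probes at large. The requirement of 2-fold in both lobes limits how far the ratios can differ, so this closeness is in part set by the choice of genes. The 2 exceptions were both higher in the ventral lobe. The gene ranked 62 had 112 and 779 units in the ventral and 189 and 746 units in the lateral prostate, for folds of 3.33 and 2.02. The gene ranked 21 had 85.6 and 614 units in the ventral and 47.1 and 211 units in the lateral prostate, with folds of 3.45 and 2.29. The ventral increase of the latter was the largest among the 67 genes, and its ventral signal was above its lateral one with either treatment.

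Probes chosen on 1 array alone can be followed on the other, although both arrays share the dye of each treatment and a dye preference of a probe would enter both ratios. Of the 138 probes at least 2-fold higher in the ventral prostate, 78 (56.5%) were so in the lateral prostate as well, 51 were 1.5-fold to 2-fold higher, 8 were higher by less, and 1 was at or below 0. Their median log2 ratios were 1.18 (ventral) and 1.05 (lateral). Of the 119 probes at least 2-fold higher in the lateral prostate, 78 (65.5%) also were in the ventral prostate, 33 were 1.5-fold to 2-fold higher, 6 were higher by less, and 2 were at or below 0. Over all 9013 compared probes, 119 (1.32%) reached 2-fold and 614 reached 1.5-fold in the lateral prostate. In the ventral prostate 138 (1.53%) and 639 did so.

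The saline levels of the 67 genes were spread evenly around equality, with 33 higher in the lateral and 34 higher in the ventral lobe. For 52 of them the saline signals lay within 1.5-fold, or 77.6%, against 91.2% of all compared probes. With OBP-801 the lobes were within 1.5-fold for 51 genes and more than 2-fold apart for 3. The same shares of all compared probes were not computed. The quartiles of the centred log2 difference of lateral over ventral OBP-801 signal were -0.38 and 0.32 for the 67 genes. Over all compared probes they were -0.21 and 0.22. The OBP-801 difference follows from the saline difference and the 2 ratios, and is no separate measurement. The choice of genes therefore limits it in part.

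The limit on the lobe difference left out 11 further probes that were at least 2-fold higher on both arrays. In saline RNA 9 of them were higher in the lateral and 2 in the ventral prostate. They made 14.1% of the 78 probes, whereas 2.82% of the compared probes lay outside the limit. Their folds ran from 2.01 to 5.30 in the ventral and from 2.14 to 3.33 in the lateral prostate, so that the largest common increases on these arrays were not among the 67 genes. The most increased of them had 222 and 2449 units in the ventral and 608 and 3957 units in the lateral prostate, and its log2 ratios were 2.41 and 1.74. Probes that shifted the other way were fewer, with 24 at least 2-fold lower in both lobes within the same lobe limit. As background, 0.311% of the compared probes were at least 2-fold lower on both arrays without regard to that limit, and 47 compared probes (0.521%) were at least 2-fold lower in the ventral lobe, as were 130 (1.44%) in the lateral lobe.

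**Figure D4:**
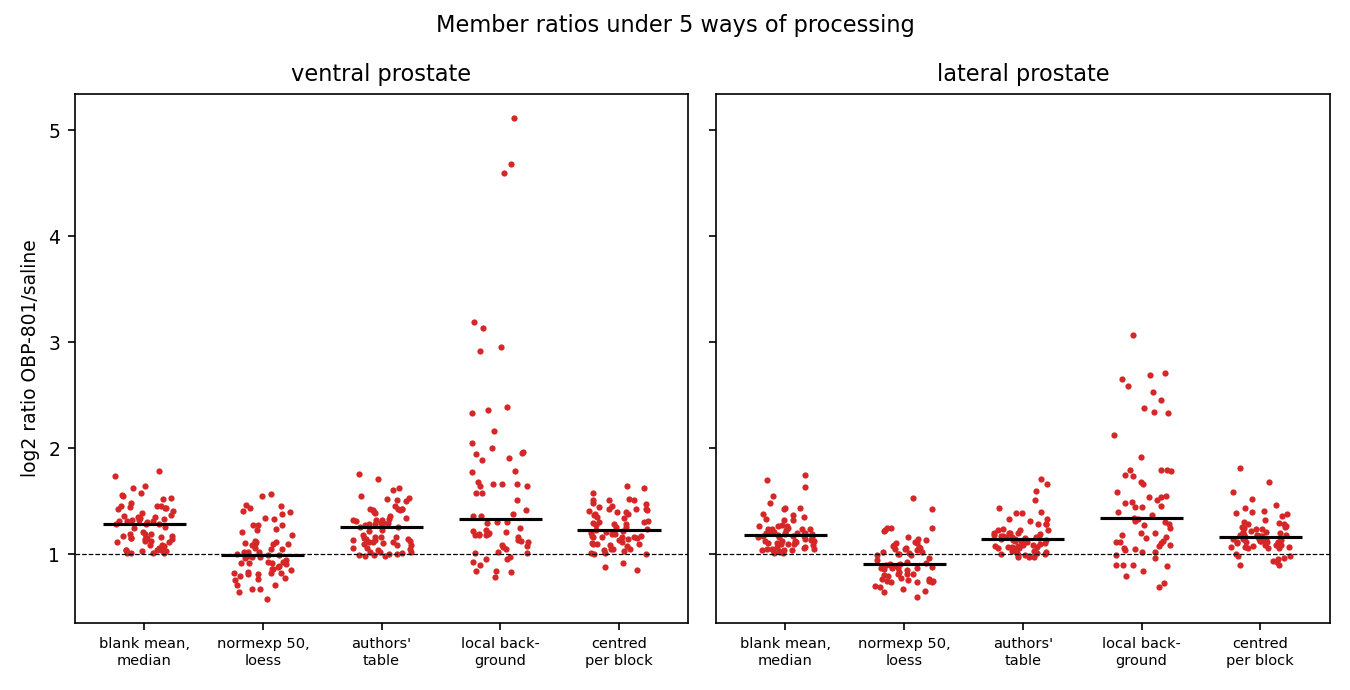
Log2 ratios of the 67 genes in the ventral (left) and the lateral prostate (right) under 5 ways of processing, 1 point per gene, with a bar at the median and a dashed line at 1. All points lie above 0 in each setting. They shift down with normexp and loess and spread upwards, to 5.12 in the ventral prostate, when the local background is subtracted.

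The size of the increase depended on the background correction. With normexp correction at an offset of 50 units and loess normalization within each array, 18 of the 67 genes stayed at least 2-fold higher in both lobes and 66 at least 1.5-fold, and the median folds were 2.00 (ventral) and 1.87 (lateral). As background on that scale, 23 of the compared probes (0.255%) were at least 2-fold higher on both arrays. Among the 30 genes under 100 saline units 0 stayed at 2-fold, among the 25 of the middle class 10 did, and among the 12 brightest 8. The offset is added to both signals and draws ratios of dim probes towards 0. ENSRNOG00000033615 was 2.96-fold and 2.69-fold higher on that scale, and ENSRNOG00000003094 2.74-fold and 2.88-fold. Subtraction of each spot's local background in place of the blank mean gave a value in both lobes for 64 genes, of which 45 were at least 2-fold and 64 at least 1.5-fold higher in both. As background there, 2.17% of the 6531 probes with 30 units above the local background in all channels were at least 2-fold higher on both arrays. Only 34 of the 67 genes reached that limit of 30 units, and 13 of these were under 2-fold in a lobe. Of the 64 genes, only those 34 are thus among the 6531 probes. The local background moved the ratio by over 1.5-fold in at least 1 lobe for 11 of the 30 dimmest genes, 7 of the 25 of the middle class and 5 of the 12 brightest. ENSRNOG00000033615 became 4.48-fold (ventral) and 5.03-fold (lateral) higher, and ENSRNOG00000003094 2.23-fold and 2.43-fold. The lower Cy5 signal of the former stood only 263 units above the local background, and that of the latter 1290 units. The gene ranked 5 had a ventral fold of 34.8 on this scale, where its lower Cy5 signal stood 39.5 units above the local background, and the gene ranked 18 one of 25.7, with 24.2 units. Among the 12 brightest genes this lower Cy5 excess had a median of 888 units, against 16.0 units among the 30 dimmest. In the log2 ratios that the authors' deposited table holds, 56 of the 67 genes were at least 1 in both lobes, against 0.732% of the compared probes, and the lowest value was 0.97. That table is made from the same spot intensities, so it is no independent measurement. For the 67 genes its ratios were those used here less a nearly constant amount on each array. The SDs were the same, at 0.193 (ventral) and 0.162 (lateral), so the 56 reflect a small shift against the threshold.

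The genes were not spread evenly over the chip. The layout, of 24 blocks, is the same on both arrays. Block 1 held 11 of the 67 genes (16.4%) and 4.16% of the compared probes, and no other block held more than 5. The other 364 compared probes of that block also had ratios above the array's centre, with median log2 ratios of 0.15 (ventral) and 0.10 (lateral). Over all blocks the median ran from -0.12 to 0.17 and from -0.06 to 0.11. Blocks 2 and 3 held only 4 of the genes each (1.11% and 1.04% of their compared probes, against 2.93% in block 1). Their medians were 0.17 and 0.15 (ventral) and 0.11 and 0.09 (lateral), much like those of block 1. The part of chip position in the ratios of the 11 genes of block 1 was not tested further than by centring. When each block was centred on its own median, 58 of the 67 genes stayed at least 2-fold higher in both lobes. Those that fell below 2-fold in a lobe all lay in blocks 1 to 3. They were the genes ranked 42, 45, 62, 64 and 66 in block 1, and 47, 49, 50 and 59 in blocks 2 and 3. The 196 compared probes that touch the spot of 1 of the 67 genes had median log2 ratios near 0, at 0.02 and -0.02. Of the 67 genes themselves, 6 had another of them within 2 columns and 1 row. How many would lie so close among equally many compared probes was not computed. The lower Cy5 excess over the local background was under 30 units for 8 of the 11 genes of block 1, from -12.7 to 280 units with a median of 7.92, and for 25 of the other 56, with a median of 41.5 units. Over all compared probes this excess had a lower quartile of 27.5 and a median of 68.1 units.

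**Figure D5:**
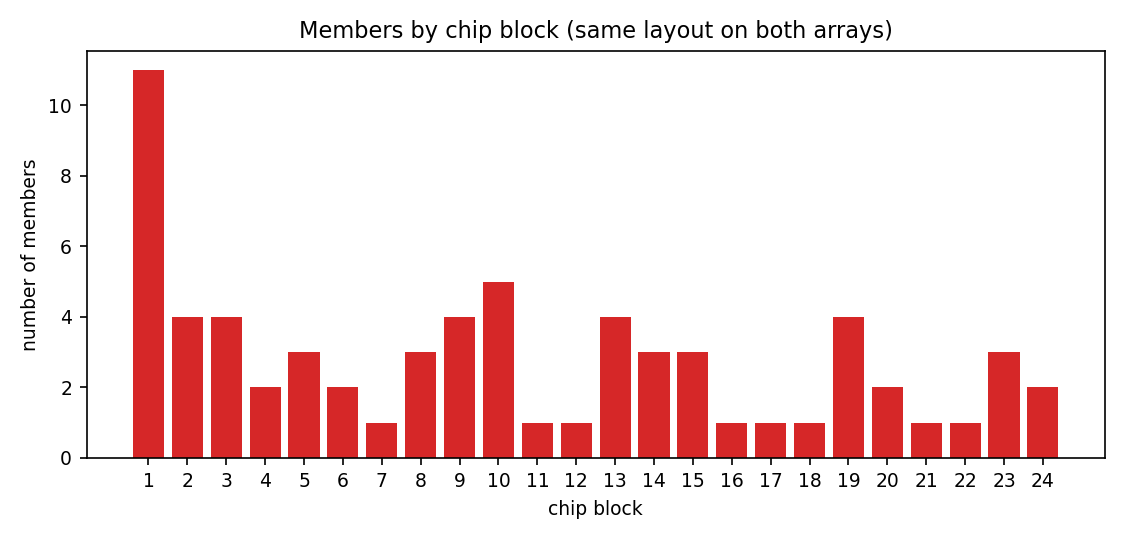
Number of the 67 genes (bars, vertical axis) in each of the 24 chip blocks (horizontal axis). Block 1 holds 11, and the other blocks hold 1 to 5 each.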

How the data were processed

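Ventral and lateral prostate RNA was measured on 1 two-colour array per lobe. Per the labels, Cy5 marked the saline and Cy3 the OBP-801 sample. Per the file headers, the intensity values are spot and local background medians at 635 and 532 nm, reconciled over 3 scanner gains and neither background-subtracted nor normalized. The sources used here give no image software. The authors' deposited log2 values are ratios whose making no header describes.

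The mean of 5808 blank spots, with 5% left out at each end, was subtracted, and log2 ratios of Cy3 over Cy5 were centred on their median over compared probes. Alternatives used limma 3.58.1 (normexp, loess) in R 4.3.3, the local background, and other limits. Python 3.11.15, numpy 2.4.6 and pandas 2.3.3 were used. With 1 array per lobe no test was made, and the number of arrays limits the precision. The rule without its lobe limit was run on simulated arrays, where the changed probes were not drawn from the dimmest. The simulation held no block effect and no dye preference of single probes, so it does not cover these. Genes were named by a fixed rule (the 2 largest smaller-of-2 ratios where no symbol matches). Others were chosen after their values were seen. The genes and lists were chosen with earlier results of these data known.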

Additional observations from a re-analysis of the deposited data

Results flagged for a closer look

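Signal also appeared outside the gene probes. Of 521 quality control spots, 134 (25.7%) had a net signal of at least 30 units in all 4 channels, a level that 0 blank spots reached. Of these 134 spots, 0 had a log2 ratio of at least 1 on both arrays and 17 had one on the ventral array alone. Their highest values were 1.67 (ventral) and 0.93 (lateral), and their means 0.43 and 0.33. As background, 1.53% of the compared gene probes reached a log2 ratio of 1 on the ventral array and 0.865% on both.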

How the results depend on the processing

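No paired analysis was possible because a lobe is represented by 1 array. The alternatives with centring per block and without block 1, and all those for probes outside the lobe limit and for lowered probes, were chosen after seeing the data. The gene list and promoter alternatives were not run, since no identifier was matched.

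In the order genes higher in both lobes, probes higher in ventral, higher in lateral, outside the lobe limit, and lower in both, the counts of 67, 138, 119, 11 and 24 became 37, 82, 78, 6 and 5 with normexp and median centring, 20, 57, 45, 3 and 12 with normexp and loess, 29, 59, 47, 4 and 15 at a minimum of 100 units, 399, 639, 614, 44 and 325 at 1.5-fold, and 0, 11, 8, 2 and 0 at 3-fold. With a minimum of 10 units the first 4 became 102, 223, 200 and 19. Local background subtraction gave 496 ventral and 329 lateral probes and 60 outside the limit. It gave 82 genes in place of 67, of which 17 were shared. Of the 67, 33 had under 30 local net units in a channel, 13 more were under 2-fold in a lobe and 4 more were outside the lobe limit. A lobe limit of 0.5 gave 13 lower probes. The median log2 ratios of the 67 genes, 1.28 and 1.18, were 1.05 and 0.94 with normexp and median centring and 1.00 and 0.91 with normexp and loess, and the lateral one was 1.35 with the local background. The other alternatives changed these counts by at most 1.5 times and these medians by less than the SD of the positive controls. In saline RNA the median signals of those controls were above the signals of all 67 genes. No single ratio of the 67 genes changed sign in the 5 alternatives run for single genes, with values from 0.33 to 5.12.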

Other observations

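Opposite movement in the lobes was rare among the compared probes with a 2-fold increase. A single probe with at least a 2-fold higher ventral level was at least 2-fold lower in the lateral prostate, with 32.8 and 529 units in ventral saline and OBP-801 RNA and 2931 and 680 units in the lateral prostate. Of the 2 probes at least 2-fold higher in the lateral and at or below 0 in the ventral prostate, 1 had 85.8 and 112 units in the ventral and 291 and 1248 units in the lateral lobe, and the other had 31.8 and 57.1 units and 107 and 460 units. All 3 had a saline signal at least 3-fold higher in the lateral than in the ventral prostate.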
